A study of Homo sapiens with 6 samples.

Results

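The genes described here are 10 genes of the oxidative stress response governed by the transcription factor NRF2: NFE2L2, KEAP1, HMOX1, NQO1, GCLM, SLC7A11, TXNRD1, SRXN1, MAFF and MAFG. They were chosen by name, with earlier results of these data known. Each has 1 entry in a deposited count table of 19655 genes. All 10 were among the 14062 genes that passed the filter on low counts. RNA was sequenced in 2 groups of 3 libraries. The labels name the cells as HCT116, a line derived from human colorectal cancer. Their identity rests on the label alone, and markers of that line, given below, were mixed. The ASO libraries came from cells transfected with an antisense oligonucleotide directed at the small nucleolar RNA SNORA67 (ASO-SNORA67, labelled SNORA67 knockdown), and the NC libraries came from cells labelled control. The labels repeat the same transfection note for every library. The oligonucleotide given to the NC cells, the dose and the harvest time are not stated in the labels. No label says whether replicates were separate cultures, so the p-values speak only of variation among these 6 libraries, some or all of which may be technical.

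NRF2, the protein of NFE2L2, binds antioxidant response elements in DNA as a pair with a small MAF protein, which MAFF, MAFG and MAFK encode. In unstressed cells KEAP1 holds NRF2 for a CUL3 ubiquitin ligase and it is degraded. Oxidants and electrophiles modify KEAP1, NRF2 accumulates, and genes for glutathione and thioredoxin synthesis, NADPH supply, heme breakdown and quinone detoxification are transcribed. NRF2 is controlled mainly as a protein, so the level of its transcript is not a measure of its activity.

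The promoters of 4 of these genes are shown because they hold a short form of the antioxidant response element, TGACNNNGC (N is any base), and of their genes MAFF rose, TXNRD1 and GCLM fell and KEAP1 was not called. Of the 10 genes, 8, all but HMOX1 and SLC7A11, matched the RefSeq promoter table (GRCh38.p14). It gives the 250 bases before a start site and the first 50 from it. The motif was searched on both strands. It lay in a promoter of 4 of these 8 genes, KEAP1, GCLM, TXNRD1 and MAFF, against 16.1% of the 27305 genes in the table and 13.3% of its 35116 promoters. A looser form, TGANNNNGC, lay in a promoter of 7 of the 8, all but SRXN1, against 47.1% of genes. Capitals mark each match, and sequences run 5′ to 3′ on the strand of the gene. TXNRD1 has a second promoter in the table, with 2 matches, that is not printed. The second promoters of KEAP1 and MAFF hold 0 matches and are not printed either.
GCLM promoter (chr1:93909381-93909680, minus strand): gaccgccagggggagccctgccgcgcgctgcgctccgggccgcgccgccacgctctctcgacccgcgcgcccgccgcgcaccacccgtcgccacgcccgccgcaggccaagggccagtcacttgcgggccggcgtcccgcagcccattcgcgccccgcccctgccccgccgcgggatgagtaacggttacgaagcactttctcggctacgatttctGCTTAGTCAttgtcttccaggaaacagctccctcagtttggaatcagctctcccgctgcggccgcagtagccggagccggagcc
TXNRD1 promoter (chr12:104286782-104287081, plus strand): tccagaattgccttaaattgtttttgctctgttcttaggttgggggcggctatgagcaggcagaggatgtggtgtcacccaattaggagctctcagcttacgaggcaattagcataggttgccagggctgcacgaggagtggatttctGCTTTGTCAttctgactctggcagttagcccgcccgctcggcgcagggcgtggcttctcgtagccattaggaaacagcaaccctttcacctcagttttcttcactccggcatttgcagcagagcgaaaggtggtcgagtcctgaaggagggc
KEAP1 promoter (chr19:10502722-10503021, minus strand): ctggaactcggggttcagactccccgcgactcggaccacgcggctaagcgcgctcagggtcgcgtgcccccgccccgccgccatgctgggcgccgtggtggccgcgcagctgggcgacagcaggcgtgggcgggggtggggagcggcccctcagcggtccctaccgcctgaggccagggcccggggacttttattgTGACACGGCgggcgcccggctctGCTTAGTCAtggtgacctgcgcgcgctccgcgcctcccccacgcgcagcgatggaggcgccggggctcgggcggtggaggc
MAFF promoter (chr22:38201744-38202043, plus strand): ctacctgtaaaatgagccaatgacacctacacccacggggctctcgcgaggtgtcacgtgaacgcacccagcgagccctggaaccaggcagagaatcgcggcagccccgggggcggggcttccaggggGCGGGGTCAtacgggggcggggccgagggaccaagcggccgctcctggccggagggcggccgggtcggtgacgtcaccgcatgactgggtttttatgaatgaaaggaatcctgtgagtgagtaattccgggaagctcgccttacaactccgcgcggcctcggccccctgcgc
GCLM and KEAP1 carried the same letters, GCTTAGTCA, on the reverse strand, with the first base 34 bases before the start site in GCLM and 31 in KEAP1, which has another match 54 bases before it on the forward strand. In TXNRD1 the match began 102 bases and in MAFF 122 bases before it. The AP-1 motif TGANTCA, which lies inside the element where N spells TCA, lay in 0 of the 8 genes' promoters, against 9.37% of genes. A match of letters is not a site shown to be bound, and a window without the motif says nothing of elements elsewhere.

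The 10 genes did not move as 1 group. In ASO cells the small MAF genes MAFF and MAFG, the cystine transporter gene SLC7A11 and the heme oxygenase gene HMOX1 rose, while the thioredoxin reductase gene TXNRD1, the glutathione synthesis gene GCLM and the sulfiredoxin gene SRXN1 fell. NFE2L2, KEAP1 and NQO1 did not pass the test. A gene is called here at an adjusted p under 0.05 in the quasi-likelihood test of edgeR, fitted on all 14062 genes. By this rule 4 of 10 genes were higher, where 26.8% of all genes tested were. Another 3 of 10 were lower, where 19.1% of all genes were. The 10 genes and the lists below were chosen with earlier results of these data known. Their shares beside those of all genes are therefore a description, not a test. The groups did not overlap in 7 of the 10 genes, where 57.6% of all genes tested had groups that did not overlap. The median log2 fold change of the 10 was 0.30, beside 0.01 for all genes tested. This median is only the midpoint between 2 genes that were not called, NQO1 (-0.11) and NFE2L2 (0.71). The value of NFE2L2 was 0.26 without NC replicate 3, so the median is no sign of a shift of the 10. Levels are given as TMM-scaled CPM, the counts of a gene per 1000000 counts of its library after library totals were adjusted by TMM, a trimmed mean of log ratios between libraries.

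**Figure D1:**
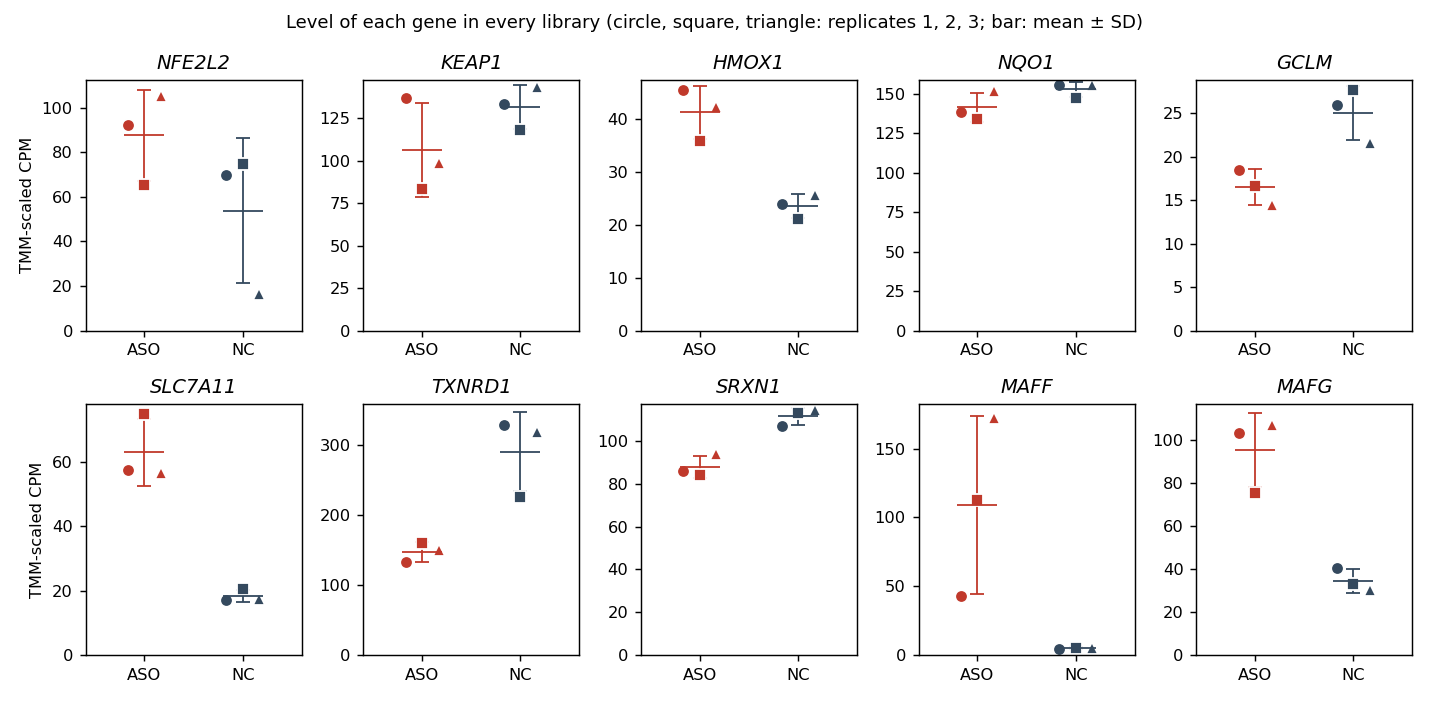
Level of each of the 10 genes in TMM-scaled CPM (linear axes from 0), with 3 ASO libraries on the left and 3 NC libraries on the right of each panel; symbols mark replicates 1 to 3 and bars the mean ± SD. The ASO and NC libraries do not overlap for HMOX1, GCLM, SLC7A11, TXNRD1, SRXN1, MAFF and MAFG, and NFE2L2 has 1 low NC library at 16.3 CPM.

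Among the regulators, NFE2L2 (chromosome 2, 177218667 to 177392756, minus strand, hg38) had 92.1, 65.3 and 105 TMM-scaled CPM in ASO libraries 1 to 3, against 69.9, 74.8 and 16.3 CPM in NC libraries 1 to 3. The groups overlapped, and NC replicate 3 stood far below every other library. NFE2L2 averaged 87.5 ± 20.3 CPM in ASO and 53.7 ± 32.5 CPM in NC (SD, n = 3 each), with a log2 fold change of 0.71 and a 95% interval from -0.43 to 1.84 (edgeR adjusted p = 0.272). Without NC replicate 3 the log2 fold change was 0.26 (edgeR adjusted p = 0.325). The coefficient of variation of NFE2L2 in NC was 60.5%, where the 95th percentile of genes at 10 CPM or more was 28.3%. Of 9103 such genes, 17 were more than 3-fold lower in NC replicate 3 than in both other NC libraries, and 12 to 26 were so in each of the other libraries of either group. What set NFE2L2 low in this library was not tested.

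The 5 genes whose levels over the 6 libraries were most like those of NFE2L2, out of 12465 at 1 CPM or more on average, were ZNF132, TRPV2, CCNJL, CLCN4 and USP22. Their Pearson r with NFE2L2 on the log2 CPM scale was 0.97 to 0.99, given as a description over 6 libraries of 2 groups. Each of the 5 was lowest in NC replicate 3, as NFE2L2 was, which largely follows from how they were picked. USP22, a deubiquitinase of the SAGA complex, had 585, 545 and 583 CPM in ASO against 488, 442 and 170.3 CPM in NC.

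KEAP1 (chromosome 19, 10486125 to 10503356, minus strand) encodes the adaptor that presents NRF2 to its ligase. It had 137, 83.1 and 98.7 CPM in ASO against 133, 118 and 144 CPM in NC. ASO replicate 1 lay among the NC libraries, and both other ASO libraries lay under all of them. The log2 fold change was -0.31, with a 95% interval from -0.72 to 0.11 (edgeR adjusted p = 0.197). Without ASO replicate 1 it was -0.54 and passed the test (edgeR adjusted p = 0.0182). The ratio of KEAP1 to NFE2L2 in CPM, which is not per length and serves only to compare libraries, was 1.49, 1.27 and 0.939 in ASO against 1.90, 1.58 and 8.82 in NC. The highest of these ratios is that of NC replicate 3, where NFE2L2 was low.

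MAFF (chromosome 22, 38201932 to 38216507, plus strand) had the largest change of the 10. It encodes a small basic leucine zipper protein without a transactivation domain of its own. MAFF had 42.5, 113 and 172 CPM in ASO libraries 1 to 3, against 4.13, 5.05 and 5.35 CPM in NC libraries 1 to 3. Every ASO library lay well above every NC library, but the ASO libraries differed widely among themselves. MAFF rose 22.5-fold, with a 95% interval from 10.3-fold to 49.4-fold (edgeR adjusted p = 0.000313). The rise was 29.3-fold without ASO replicate 1 and 16.0-fold without ASO replicate 3. Its coefficient of variation in ASO was 59.4%, above the 95th percentile of 37.4% for genes at 10 CPM or more. In bulk RNA, a change in how many cells hold a transcript and a change in the amount per cell cannot be told apart.

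MAFG (chromosome 17, 81918270 to 81927735, minus strand), the second small MAF gene, had 103, 75.3 and 107 CPM in ASO against 40.3, 32.7 and 29.9 CPM in NC. The lowest ASO library was above the highest NC library. MAFG rose 2.77-fold, with a 95% interval from 2.11-fold to 3.64-fold (edgeR adjusted p = 0.000406). MAFK, the remaining small MAF gene and not among the 10, rose 3.15-fold to 281 ± 28.3 CPM in ASO, against 89.3 ± 5.29 CPM in NC (SD, n = 3 each, edgeR adjusted p = 1.72e-05). Lengths used here are of all annotated exons of a gene together, not of the transcripts expressed. Per kb of exon the 3 genes together reached 95.3, 90.4 and 116 CPM per kb in ASO. In NC they reached 29.2, 25.8 and 27.4 CPM per kb. MAFF held 7.95%, 22.2% and 26.3% of that sum in ASO, against 2.52%, 3.48% and 3.47% in NC. MAFK remained the most abundant by this measure, at 56.1% to 71.3% in ASO and 71.0% to 75.6% in NC.

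**Figure D2:**
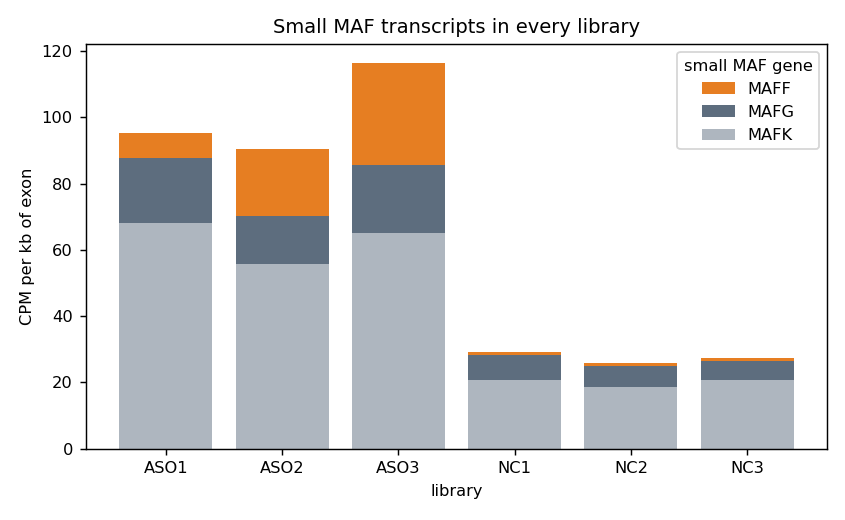
Levels of the small MAF genes MAFF, MAFG and MAFK in each library, as TMM-scaled CPM per kb of GENCODE exon length, stacked; ASO libraries stand left of NC libraries. The totals are 90.4 to 116 in ASO and 25.8 to 29.2 in NC, and the MAFF segment differs most between ASO libraries.

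HMOX1 (chromosome 22, 35380361 to 35394212, plus strand) encodes heme oxygenase, the inducible enzyme that breaks heme into biliverdin, iron and carbon monoxide. It had 45.6, 35.9 and 42.4 CPM in ASO against 23.9, 21.2 and 25.7 CPM in NC. All ASO libraries were above all NC libraries. HMOX1 rose 1.75-fold, with a 95% interval from 1.40-fold to 2.18-fold (edgeR adjusted p = 0.00244).

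SLC7A11 (chromosome 4, 138164097 to 138242349, minus strand) encodes the light chain of the cystine and glutamate exchanger xCT, which brings in cystine for glutathione. It had 57.3, 75.0 and 56.6 CPM in ASO against 17.1, 20.4 and 17.4 CPM in NC. All ASO libraries were above all NC libraries, and ASO replicate 2 was the highest. The rise was 3.45-fold, with a 95% interval from 2.71-fold to 4.40-fold (edgeR adjusted p = 8.12e-05), and SLC7A11 had the smallest p of the 10 genes. SLC3A2, the heavy chain of the same exchanger and named after its values were seen, rose 1.36-fold to 1806 ± 164 CPM in ASO, against 1327 ± 81.2 CPM in NC (SD, n = 3 each, edgeR adjusted p = 0.00518).

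TXNRD1 (chromosome 12, 104215779 to 104350307, plus strand) encodes cytosolic thioredoxin reductase, a selenoprotein that keeps thioredoxin reduced with NADPH. It had 132, 160 and 150 CPM in ASO against 329, 225 and 319 CPM in NC. All ASO libraries were below all NC libraries, of which replicate 2 was the lowest. TXNRD1 fell 1.98-fold, a log2 fold change of -0.98 with a 95% interval from -1.34 to -0.63 (edgeR adjusted p = 0.0016).

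SRXN1 (chromosome 20, 646615 to 653200, minus strand) encodes sulfiredoxin, which repairs over-oxidised peroxiredoxins. It had 85.9, 84.3 and 93.9 CPM in ASO against 107, 113 and 115 CPM in NC. The fall was small, but the groups were tight and did not overlap. SRXN1 fell 1.27-fold, a log2 fold change of -0.34 with a 95% interval from -0.55 to -0.14 (edgeR adjusted p = 0.0152).

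GCLM (chromosome 1, 93885199 to 93909456, minus strand) encodes the modifier subunit of glutamate-cysteine ligase, the first enzyme of glutathione synthesis. It had 18.4, 16.7 and 14.4 CPM in ASO against 25.9, 27.7 and 21.6 CPM in NC. All ASO libraries were below all NC libraries. GCLM fell 1.52-fold, a log2 fold change of -0.60 with a 95% interval from -0.96 to -0.24 (edgeR adjusted p = 0.0151). The call ended without ASO replicate 3 (edgeR adjusted p = 0.0592), NC replicate 1 (0.0617) or NC replicate 2 (0.0597). GCLC, the catalytic subunit and not among the 10, fell 1.57-fold (edgeR adjusted p = 0.00988, and 0.053 without NC replicate 1). The ratio of GCLM to GCLC by CPM was 1.26, 0.911 and 0.909 in ASO against 0.92, 1.05 and 0.976 in NC, with the groups overlapping.

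NQO1 (chromosome 16, 69706996 to 69726668, minus strand) encodes a quinone reductase and is widely read as a marker of NRF2 activity. It had 138, 134 and 152 CPM in ASO against 156, 147 and 155 CPM in NC. ASO replicate 3 lay among the NC libraries. The log2 fold change was -0.11, with a 95% interval from -0.31 to 0.09, that is from 0.808-fold to 1.06-fold (edgeR adjusted p = 0.319).

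**Figure D3:**
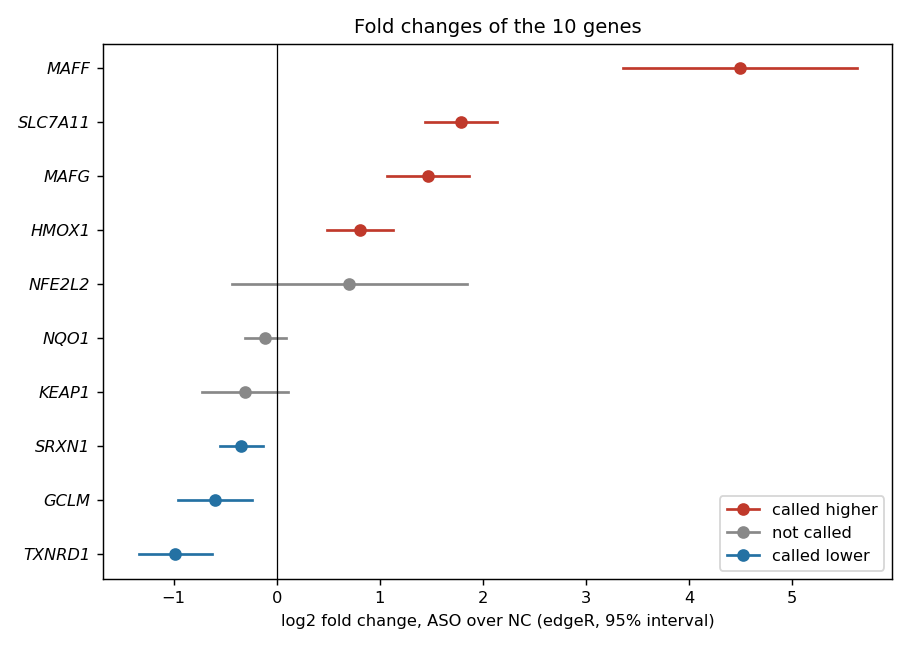
Fitted log2 fold change of ASO over NC for each of the 10 genes (points) with its 95% interval from the edgeR fit (lines), coloured by whether the gene was called. Values run from 4.49 for MAFF to -0.98 for TXNRD1, and the intervals of NFE2L2, NQO1 and KEAP1 cross 0.

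Levels of different genes can be compared only per length. The length used was that of all annotated exons of a gene together, not of the transcripts expressed here. The order is therefore approximate. In ASO the order by CPM per kb of exon was NQO1 (43.5 ± 2.85), SRXN1 (32.6 ± 1.91), KEAP1 (28.2 ± 7.36), TXNRD1 (21.95 ± 2.07), MAFF (19.4 ± 11.5), MAFG (18.2 ± 3.3), HMOX1 (17.2 ± 2.05), NFE2L2 (14.6 ± 3.4), SLC7A11 (6.53 ± 1.08) and GCLM (3.05 ± 0.373). In NC it was NQO1 (46.9 ± 1.52), TXNRD1 (43.4 ± 8.51), SRXN1 (41.4 ± 1.50), KEAP1 (34.96 ± 3.41), HMOX1 (9.81 ± 0.956), NFE2L2 (8.97 ± 5.43), MAFG (6.57 ± 1.03), GCLM (4.62 ± 0.573), SLC7A11 (1.89 ± 0.189) and MAFF (0.863 ± 0.113), all SD with n = 3. NQO1 was thus first in both groups, while MAFF was last in NC and in the middle in ASO. In ASO the ranges of 1 SD overlapped between neighbours from SRXN1 to NFE2L2 in this order. In NC they overlapped between neighbours from NQO1 to SRXN1 and from HMOX1 to MAFG, and the others did not.

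Some of the 10 genes share their span with another gene, and no source used here states whether counting used strand. EID3 lies within TXNRD1 on the same strand, with no exon in common, and rose 16.5-fold to 9.13, 7.46 and 9.34 CPM in ASO against 0.378, 0.533 and 0.654 CPM in NC (edgeR adjusted p = 2.46e-05). This is opposite to the fall of TXNRD1. PLA2G6, a phospholipase gene on the strand opposite to MAFF, overlaps it over 12847 bases with 0 exon bases in common in GENCODE, and rose 2.26-fold (edgeR adjusted p = 0.00444). SIRT7, a sirtuin gene on the same strand as MAFG, shares 105 exon bases with it and rose 1.98-fold (edgeR adjusted p = 0.000778). The deposited span of NFE2L2 overlaps HNRNPA3, on the other strand, over 5293 bases with 0 exon bases in common in GENCODE. HNRNPA3 fell 1.38-fold (edgeR adjusted p = 0.0375). AGPS, also on the other strand, shares 54 exon bases with NFE2L2 in GENCODE and was not called (edgeR adjusted p = 0.245). An entry known only by an Ensembl number overlaps SRXN1 over 6575 bases. It had at most 4 counts in any library, too few to be tested. How far shared reads move the values of these genes was not tested.

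Regulators and partners of NRF2 outside the 10 genes were split. Of 15 listed and tested, 4 rose, 4 fell and 7 were not called (all genes tested: 26.8% higher, 19.1% lower), with a median log2 fold change of -0.23. BACH1, a repressor that competes with NRF2 for small MAF partners and holds HMOX1 down, stood at 31.4 ± 6.77 CPM in ASO and 18.0 ± 4.24 CPM in NC, 1.75-fold higher (edgeR adjusted p = 0.0212). Its call ended without ASO replicate 2 or 3 and without NC replicate 1 or 3 (edgeR adjusted p from 0.0542 to 0.068). SQSTM1, an autophagy adaptor that binds KEAP1, rose 1.28-fold (edgeR adjusted p = 0.0141, and 0.0628 without ASO replicate 3). NFE2L3, a relative of NRF2, rose 5.84-fold to 1.77 ± 0.876 CPM in ASO, against 0.30 ± 0.175 CPM in NC (edgeR adjusted p = 0.0128). NFE2L1, another relative, fell 1.37-fold, BTRC, a substrate receptor for phosphorylated NRF2, fell 1.63-fold, and DCAF11, a receptor of another ligase, fell 1.37-fold (edgeR adjusted p = 0.0154, 0.0169 and 0.0337). CUL3 was at 55.6 ± 13.1 CPM in ASO and 71.5 ± 9.82 CPM in NC, which is -0.36 on the log2 scale (edgeR adjusted p = 0.134). CUL3 was called lower without ASO replicate 2, at -0.58 (edgeR adjusted p = 0.0118), and with the replicate number as a block, at -0.38 (edgeR adjusted p = 0.0152). RBX1, the RING subunit of the same ligase, was at 53.2 ± 5.66 CPM in ASO and 60.2 ± 9.78 CPM in NC (edgeR adjusted p = 0.353). The number that fell was 1 without ASO replicate 3 and 2 without NC replicate 1 or 3, the number that rose was 2 without ASO replicate 3, and each of the calls of NFE2L1, BTRC and DCAF11 ended without at least 1 library. With the replicate number as a block, 7 of the 15 fell.

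Glutathione genes fell in 7 and rose in 5 of 22 tested (all genes tested: 19.1% lower, 26.8% higher), with a median log2 fold change of -0.25. GSR, which regenerates reduced glutathione, fell 1.70-fold to 37.3 ± 4.57 CPM in ASO, against 63.5 ± 1.37 CPM in NC (edgeR adjusted p = 0.00144). MGST1, a membrane glutathione transferase, fell 1.76-fold, and ABCC4, an export pump, fell 1.65-fold (edgeR adjusted p = 0.0396 and 0.0229). ABCC3, an export pump for conjugates, rose 3.53-fold to 126 ± 7.79 CPM in ASO, against 35.7 ± 6.13 CPM in NC (edgeR adjusted p = 5.34e-05). GGT1, which cleaves extracellular glutathione, rose 2.41-fold, and GLRX, a glutaredoxin, rose 1.95-fold (edgeR adjusted p = 0.0196 and 0.00147). Without NC replicate 1 the counts were 3 lower and 3 higher, with the replicate number as a block 12 were lower, and the calls of MGST1, ABCC4 and GGT1 ended without some single libraries (edgeR adjusted p from 0.054 to 0.129).

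Thioredoxin and peroxiredoxin genes fell in 8 and rose in 3 of 16 tested (all genes tested: 19.1% lower, 26.8% higher), with a median log2 fold change of -0.31. PRDX1, an abundant peroxide-reducing enzyme, had 586, 729 and 633 CPM in ASO against 1197, 1381 and 1178 CPM in NC, and fell 1.93-fold (edgeR adjusted p = 0.000325). TXN, the thioredoxin that TXNRD1 reduces, fell 1.42-fold to 190 ± 30.6 CPM in ASO, against 269.8 ± 7.77 CPM in NC (edgeR adjusted p = 0.0101). MSRB1, a methionine sulfoxide reductase, fell 1.95-fold and TXNRD3 1.97-fold (edgeR adjusted p = 0.000562 and 0.0157). The mitochondrial reductase gene TXNRD2 rose 1.41-fold (edgeR adjusted p = 0.00786). TXNIP, an inhibitor of thioredoxin, rose 4.50-fold to 359, 390 and 365 CPM in ASO, against 79.3, 87.2 and 81.3 CPM in NC (edgeR adjusted p = 1.66e-06). SESN2, a stress-induced sestrin also listed with the ATF4 targets, rose 5.67-fold (edgeR adjusted p = 3.16e-06). The number that fell was 5 without ASO replicate 3 or NC replicate 2, and TXNRD3 was not called in those fits.

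Among genes for NADPH supply, 5 of 11 tested fell (all genes tested: 19.1% lower, 26.8% higher). IDH1 fell 2.18-fold, ME1 2.03-fold and PGD of the pentose phosphate pathway 1.49-fold (edgeR adjusted p = 0.000999, 0.00669 and 0.000722). None of the 11 was called higher by edgeR, DESeq2 or limma-voom, and 0 of the 11 had a higher level at an unadjusted p under 0.05 in edgeR. Heme and iron genes fell in 5 and rose in 1 of 14 tested (all genes tested: 19.1% lower, 26.8% higher). BLVRA, which reduces the biliverdin made by heme oxygenase, fell 2.13-fold to 8.74 ± 0.0678 CPM in ASO, against 18.6 ± 1.40 CPM in NC (edgeR adjusted p = 0.000627). The porphyrin transporter gene ABCB6 fell 1.70-fold and FECH, the last enzyme of heme synthesis, 1.79-fold, while the heme transporter gene SLC48A1 rose 1.92-fold (edgeR adjusted p = 0.00342, 0.0357 and 0.00984). The ferritin genes, which have many processed copies in the genome, were not called, with FTH1 at 2308 ± 127 CPM in ASO and 2580 ± 597 CPM in NC and FTL at 788 ± 79.1 CPM in ASO and 817 ± 43.7 CPM in NC (edgeR adjusted p = 0.423 and 0.667). The heme and iron genes that fell numbered 3 without ASO replicate 1, NC replicate 1 or NC replicate 2, and in those fits FECH was not called. The call of FECH also ended without ASO replicate 2 (edgeR adjusted p = 0.0708) and with the replicate number as a block (edgeR adjusted p = 0.0867). With DESeq2, with the block and with counts divided by 4, 2 rose.

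Drug and carbonyl metabolism genes fell in 8 and rose in 2 of 14 tested (all genes tested: 19.1% lower, 26.8% higher), with a median log2 fold change of -0.43. The aldo-keto reductase genes AKR1C3 and AKR1C1, close copies between which reads may be split, fell 3.17-fold and 2.29-fold (edgeR adjusted p = 0.00126 and 0.0477). AKR1C1 was at 0.814 ± 0.323 CPM in ASO and 1.86 ± 0.499 CPM in NC, and its call ended under 8 of 15 alternatives. ESD, an esterase, fell 2.56-fold, while CES2, a carboxylesterase, rose 1.54-fold and AKR1B1, an aldose reductase, 1.20-fold (edgeR adjusted p = 0.000904, 0.00206 and 0.0355). The number that fell was 5 without ASO replicate 1 and 3 without NC replicate 1, and 1 rose without ASO replicate 1 or 3 or NC replicate 1 or 2, where AKR1B1 was not called. Other antioxidant enzymes and metallothioneins rose in 4 and fell in 2 of 10 tested (all genes tested: 26.8% higher, 19.1% lower). SOD2, the mitochondrial superoxide dismutase, which NF-kB also induces, rose 5.96-fold, OSGIN1 4.67-fold and the metallothionein MT2A, which has close copies, 2.12-fold (edgeR adjusted p = 0.000205, 0.00108 and 0.000427). SOD1 fell 1.70-fold and CAT, the catalase gene, 1.66-fold (edgeR adjusted p = 9.22e-05 and 0.000988).

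SLC7A11 is also a known target of ATF4, the factor of the integrated stress response. Whether ATF4 had a part in the rise of SLC7A11 was not tested. Of 13 listed ATF4 targets tested, 10 rose, 1 fell and 2 were not called (all genes tested: 26.8% higher, 19.1% lower). The median of their log2 fold changes was 1.90. This list, like the others, was chosen with earlier results of these data known. ATF4 itself, the remaining gene of this list of 14, rose by 0.68 on the log2 scale to 216 ± 16.8 CPM in ASO, against 135 ± 9.21 CPM in NC (SD, n = 3 each, edgeR adjusted p = 0.00102). CHAC1, a glutathione-degrading enzyme, rose 27.7-fold to 119 ± 14.5 CPM in ASO, against 4.29 ± 0.688 CPM in NC, and ATF3 rose 12.6-fold (edgeR adjusted p = 1.32e-06 and 8.92e-07). PSAT1, a serine synthesis enzyme, fell 1.18-fold (edgeR adjusted p = 0.042), a call that ended under 7 of 15 alternatives, among them DESeq2 (adjusted p = 0.0599). Over all 8 lists, 29 of 115 genes tested rose and 40 fell, beside the 26.8% and 19.1% given above for all genes. The list of ATF4 and its targets held 11 of the 29 that rose and 1 of the 40 that fell. Without NC replicate 1, 24 list genes fell. Genes called lower over the whole table also dropped in that fit, to 1755 from 2692. The 9 listed genes with too few counts to be tested with all 6 libraries are not in the 29 or the 40.

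**Figure D4:**
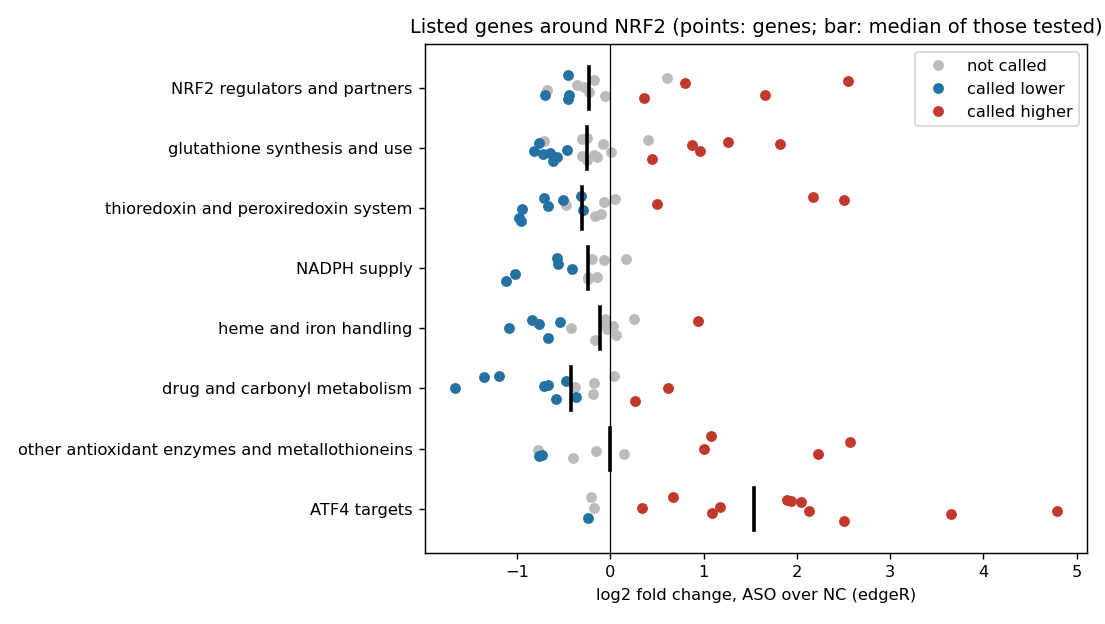
Fitted log2 fold change of ASO over NC for the tested genes of each of the 8 lists (points, coloured by call, spread at random up and down for legibility) with the median of each list (bar). The medians lie between -0.43 and 0.00 for 7 lists and at 1.54 for the list of ATF4 and its targets.

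Over the 13602 of 14062 tested genes with a GENCODE transcript, the median log2 fold change was -0.38 in the lowest of 5 equal bins of GC content and 0.34 in the highest. SLC7A11, at 35.4% GC, lay 2.17 above the median of its own bin on the log2 scale, MAFF (61.9% GC) 4.15, MAFG (57.2%) 1.26 and HMOX1 (58.1%) 0.60 above. TXNRD1 (44.8%) lay at -0.81 from the median of its bin, SRXN1 (53.6%) at -0.55 and GCLM (37.3%) at -0.22. Of the 7 called genes, GCLM was thus closest to genes of like GC content. Among the genes not called, NFE2L2 (45.6%) lay 0.88 and NQO1 (46.0%) 0.06 above the median of their bin. KEAP1 (60.3%) lay at -0.65 from that of its bin, farther than the called genes SRXN1, HMOX1 and GCLM. The part of GC content in these fold changes was not tested.

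**Figure D5:**
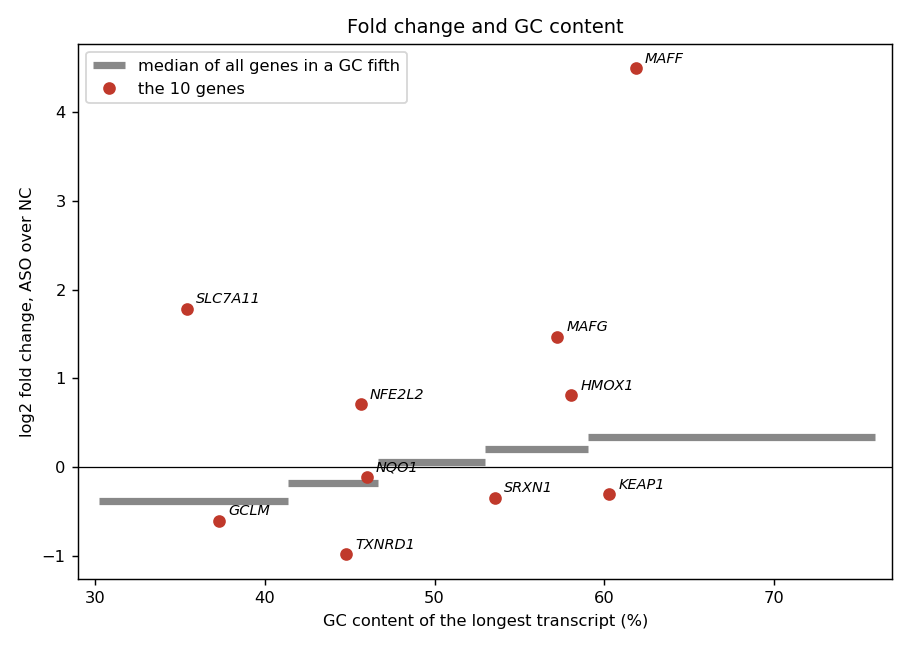
Log2 fold change of ASO over NC against the GC content of the longest GENCODE transcript for the 10 genes (points), with the median of all tested genes in each of 5 equal bins of GC content (grey bars spanning the bin). The medians run from -0.38 to 0.34, and SLC7A11, MAFF and MAFG lie farthest above them.

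The libraries held 49136502 to 54905215 counts in ASO and 50728524 to 53715905 in NC. SNORA67 was not analysed here, so its knockdown was not checked. Markers of the labelled line were mixed: the keratin genes KRT8 and KRT18 were at 1166 ± 181 and 738 ± 79.2 CPM in ASO and at 1360 ± 94.3 and 712 ± 55.8 CPM in NC, but EPCAM was at 2.93 ± 0.51 CPM in ASO and 4.37 ± 1.13 CPM in NC, and CDH1 at 1.81 ± 0.128 CPM in ASO and 1.06 ± 0.229 CPM in NC. CLDN4 averaged 5.78 CPM in ASO and 4.60 CPM in NC. KRT20, CDX1, CDX2 and CLDN3 averaged 0.0497 to 0.236 CPM in ASO and 0 to 0.311 CPM in NC. Mesenchymal markers were mixed too. VIM was at 1290 ± 106 CPM in ASO and 1201 ± 82.2 CPM in NC. COL5A1 was at 1280 ± 125 CPM in ASO and 612 ± 33.3 CPM in NC. COL1A1 averaged 374 CPM in ASO and 160 CPM in NC, FN1 413 and 226 CPM, and PDGFRB 41.0 and 101 CPM. COL3A1, LUM and DCN averaged 1.73 to 2.29 CPM in ASO and 0.582 to 4.53 CPM in NC. COL1A2 was at 0 in every ASO library and at 0, 0.147 and 0 CPM in NC. The cells are called HCT116 only by their label. Summed over 7 leukocyte markers the level was 88.9 to 111 CPM in ASO and 23.9 to 25.3 CPM in NC. Nearly all of it was CD68, while PTPRC and CD3E were at 0 in every library. All 3 leukocyte markers that were tested rose: CD68 4.17-fold, CD14 3.97-fold and CSF1R 1.83-fold (edgeR adjusted p = 1.43e-05, 0.014 and 0.0203). CD14 averaged 1.14 CPM in ASO and 0.287 CPM in NC, and CSF1R 3.45 and 1.88 CPM. LYZ, with too few counts to be tested, averaged 0.49 CPM in ASO and 0 in NC. Summed over 4 endothelial markers it was 14.5 to 19.6 CPM in ASO and 9.59 to 10.7 CPM in NC, with KDR at 0 in every library, over 4 erythroid markers 1.98 to 2.44 CPM in ASO and 0.245 to 0.753 CPM in NC, and over 9 mesenchymal markers, of which 4 rose and 3 fell, 3083 to 3672 CPM in ASO and 2181 to 2488 CPM in NC. The 12 epithelial markers summed to 1667 to 2195 CPM in ASO and 1920 to 2215 CPM in NC, most of it KRT8 and KRT18. Of them 3 rose, each near 0 in NC: LGALS4 was at 19.0, 15.1 and 20.1 CPM in ASO against 0, 0 and 0.0198 CPM in NC, VIL1 at 10.9, 1.12 and 14.6 CPM in ASO against 0, 0.202 and 0 CPM in NC, and KRT19 at 1.83, 1.20 and 1.94 CPM in ASO against 0.151, 0 and 0 CPM in NC (edgeR adjusted p = 2.43e-06, 0.00382 and 0.00593). The part of these markers' cells in the changes of the 10 genes was not tested.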

How the data were processed

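RNA of 6 libraries, 3 ASO and 3 NC, was sequenced. STAR, StringTie, FastQC, DESeq2 and the build hg38 appear, with no version or role, per the submitters' processing notes. Which annotation was counted, whether strand was used and how multiply matching reads were treated is not given in the sources used here. The deposited values are estimated counts per gene, not scaled to depth, whole as deposited. The most frequent value above 0 was 4 in each library (226 to 296 genes), and what 1 fragment is worth in counts is not given in the sources used here. Intervals cover the spread between libraries only.

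The test was that of edgeR 4.0.16 under R 4.3.3, with filterByExpr by group (minimum count 10, minimum total 15), TMM scaling, a robust quasi-likelihood fit of ASO against NC without a block, Benjamini-Hochberg adjustment over 14062 genes, threshold 0.05. SE is the absolute log2 fold change over the square root of F. The same fit was also run on counts simulated with known changes, with an outcome not reported here. These counts were drawn with the spread that edgeR estimated in these data. That run therefore says nothing of batches or shared cultures. Exon lengths and GC content come from GENCODE 29 (GRCh38), promoters from RefSeq.

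The 10 genes and the 8 lists were chosen with earlier results of these data known. Other genes named are MAFK, BACH1, CUL3, RBX1, SQSTM1, GCLC, TXN, FTL and FTH1, up to 3 called genes per list and direction with the largest fold change, groups apart and 1 CPM or more in a group, the 5 genes most like NFE2L2, and markers; SLC3A2 and the overlapping genes are outside this rule. Some genes that the rule or the marker lists hold are not reported here. Alternatives were RLE, upper-quartile and no scaling, 2 other filters, DESeq2 1.42.0, limma-voom (limma 3.58.1), the replicate number as a block, and fits without each library in turn; a fit on counts divided by 4 was chosen after seeing the data.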

Additional observations from a re-analysis of the deposited data

How the results depend on the processing

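The 4 genes of the 10 that rose, MAFF, MAFG, SLC7A11 and HMOX1, were called higher under all 15 alternatives, and TXNRD1 and SRXN1 were called lower under all 15. The 10 genes gave 150 values under alternatives, of which 0 turned direction, 3 lost a call (GCLM without single libraries) and 1 gained one (KEAP1 without ASO replicate 1). No scaling moved the median of all genes by more than 0.02 on the log2 scale. Leaving out single libraries gave 1755 (without NC replicate 1) to 3199 genes called lower over the whole table, with 1764 without ASO replicate 3, against 2692 with all, and 24 (without NC replicate 1) to 41 list genes called lower, against 40. With a replicate block, 3494 genes were called lower and 3924 higher, and 51 list genes lower; the correlation of same-numbered libraries' deviations was 0.05, 0.19 and 0.02, so the numbers were not taken to pair the libraries. ASO replicate 2 and NC replicate 2 correlated best with each other, while ASO replicates 1 and 3 did so with other numbers. The 46 other named genes included 15 whose call changed in at least 1 alternative. Of uncalled genes, FTH1 had a log2 fold change of 0.0333 without NC replicate 2 (range without single libraries -0.31 to 0.03) and FTL 0.0249 without ASO replicate 2 (range -0.10 to 0.02), opposite to the values reported; the causes of these changes were not tested. With 3 libraries a group and residual spread shared over genes, differences as small as that of NQO1 could not be told from 0.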
